A study of Mus musculus with 15 samples.

Results

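The genes described here encode 10 proteins of the lipid droplet in mouse liver: the perilipins Plin2, Plin3, Plin4 and Plin5, the CIDE proteins Cidea, Cideb and Cidec, and the droplet proteins Fitm2, Hsd17b13 and G0s2. They were found by their exact gene symbols in the deposited table of read counts, and all 10 were present among its 26264 genes. The series holds 15 liver RNA libraries in 5 groups of 3 from a mouse model of diet-induced fatty liver disease. HFD-337 livers came from mice on a high-fat diet (HFD) in which the kinase STK25 was knocked down with an agent that the study calls Gc337. HFD-338 livers came from mice on the same diet in a group that the labels mark only as 338. HFD-Res livers came from mice on the diet that received resmetirom, which activates the beta form of the thyroid hormone receptor. HFD-NS livers are the diet-fed group against which these were set, and SD-NS livers are the remaining group, not marked as HFD; the labels spell out neither NS nor SD. Strain, sex, age, doses, duration of treatment and the cells that took up each agent are not given in the sources used here. Whether the 3 libraries of a group came from separate animals is not stated either, so p-values measure the spread between these libraries.

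Lipid droplets are stores of triglyceride and cholesterol ester that bud from the endoplasmic reticulum under a single layer of phospholipid, and proteins on that surface set how fast droplets grow and how fast they are emptied. Perilipins coat the surface and limit access of lipases, and CIDE proteins gather where droplets touch and move lipid into the larger one. In the healthy hepatocyte Plin2 is the main coat and Cideb the main CIDE protein, whereas Cidea and Cidec are known as genes of fatty liver. Plin2, Plin4, Plin5, Cidec, Fitm2 and G0s2 are among the genes known to be controlled by peroxisome proliferator-activated receptors (PPARs), which bind paired copies of a nuclear receptor half-site.

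Upstream sequences are shown for 2 pairs of genes whose levels moved in different ways across the libraries: Plin2 and Plin5 as one pair, Plin4 and Cidec as the other. Each is the run of 250 bases before the transcription start from RefSeq on build GRCm38.p6, on the minus strand, at chr4:86670060-86670309 for Plin2, chr17:56117549-56117798 for the upstream start of Plin5, chr17:56109783-56110032 for Plin4 and chr6:113435761-113436010 for the upstream start of Cidec. Capitals mark the half-site AGGTCA on either strand in Plin2 and Plin5, and a looser paired motif in Cidec.
Plin2: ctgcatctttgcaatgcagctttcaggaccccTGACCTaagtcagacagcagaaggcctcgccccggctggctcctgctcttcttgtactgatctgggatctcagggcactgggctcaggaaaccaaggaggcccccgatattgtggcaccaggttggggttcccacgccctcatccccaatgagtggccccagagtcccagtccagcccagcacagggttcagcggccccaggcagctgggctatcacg
Plin5: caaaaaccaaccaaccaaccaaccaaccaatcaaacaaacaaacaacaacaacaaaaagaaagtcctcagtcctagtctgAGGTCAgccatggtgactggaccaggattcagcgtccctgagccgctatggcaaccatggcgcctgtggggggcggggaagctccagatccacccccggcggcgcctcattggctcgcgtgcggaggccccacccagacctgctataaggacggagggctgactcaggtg
Plin4: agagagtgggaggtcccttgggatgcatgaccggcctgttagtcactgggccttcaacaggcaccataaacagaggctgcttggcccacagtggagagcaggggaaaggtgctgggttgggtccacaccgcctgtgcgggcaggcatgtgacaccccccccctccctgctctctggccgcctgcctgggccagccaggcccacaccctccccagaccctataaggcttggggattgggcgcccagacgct
Cidec: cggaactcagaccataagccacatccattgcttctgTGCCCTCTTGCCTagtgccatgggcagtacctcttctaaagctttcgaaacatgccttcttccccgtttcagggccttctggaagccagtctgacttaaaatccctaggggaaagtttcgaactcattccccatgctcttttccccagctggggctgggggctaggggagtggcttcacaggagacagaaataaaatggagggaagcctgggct
The motif AGGTCA was searched on both strands from 250 bases before to 50 bases after each of 32851 RefSeq starts, 16.3% of which held it. Promoters were listed for 9 of the 10 genes, at 11 starts in all, whereas the 16.3% counts starts and not genes. The motif was found in 3 of the 9 genes: at position -218 from the start in Plin2, at -96 in Hsd17b13, and at -170 from the upstream start of Plin5 and at 14 from its downstream start. The perfect repeat with 1 spacer base, AGGTCANAGGTCA, which contains the half-site, occurred in 0.0396% of promoters and in none of these genes. A loosened form, AGGNNANAGGNCA, chosen after the promoters had been read, occurred in 0.913% of promoters and at -214 in Cidec. Fitm2 ran as close to Plin2 and Plin5 as these did to each other (Pearson correlation of log2 CPM 0.91 for each pair). Its listed promoter, not shown, held no AGGTCA. The matches describe letters in a window, are not evidence of binding and were not tested against the levels.

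Libraries held 3873903 to 9797743 counted reads, and levels are given in CPM, the read count relative to the library's total after scaling by the trimmed mean of M-values. Stk25, the knockdown target, had 19.1, 18.8 and 14.6 CPM in HFD-337 livers, 22.0, 21.9 and 20.5 CPM in HFD-338 livers, 46.9, 37.7 and 41.3 CPM in HFD-Res livers, 48.6, 43.7 and 47.3 CPM in HFD-NS livers and 50.6, 53.3 and 47.8 CPM in SD-NS livers. Log2 fold changes carry their SE, and adjusted p are from edgeR's quasi-likelihood test with Benjamini-Hochberg adjustment. Stk25 was lower in the HFD-338 livers too, at a log2 fold change of -1.11 ± 0.11 (adjusted p = 6.41e-07), beside -1.40 ± 0.11 (adjusted p = 3.80e-08) in the HFD-337 livers. The exons of Farp2 cover 23.1% of those of Stk25, and the unstranded counting could give reads to both genes. As a check of the labelled tissue, all 10 hepatocyte markers were measured; they summed to 109103 to 157716 CPM in HFD-337, 115561 to 120677 CPM in HFD-338, 89102 to 98296 CPM in HFD-Res, 127071 to 141865 CPM in HFD-NS and 134441 to 160010 CPM in SD-NS livers. Of the 10, 5 fell and none rose in HFD-Res livers, 4 fell and none rose in HFD-338 livers, and 4 fell and 3 rose in HFD-337 livers. The sums in HFD-Res and HFD-338 livers both lay below the HFD-NS range, without overlap. Most of each sum was 1 gene, Alb, which encodes albumin. Alb alone had 75622 to 82828 CPM in HFD-338 livers, overlapping 78170 to 89703 CPM in HFD-NS livers. In HFD-Res livers it had 53817 to 59945 CPM. All 7 bile duct markers tested rose in HFD-338 livers. Their list summed to 599 to 757 CPM in HFD-338 livers against 60.7 to 75.2 CPM in HFD-NS livers. Most of the HFD-338 sum was 1 gene, Spp1, at 577, 519 and 663 CPM. The list of 8 stellate cell markers summed to 187 to 356 CPM in HFD-337 livers, where 5 fell and none rose. It summed to 828 to 1406 CPM in HFD-338 livers, where 3 rose and 1 fell, against 447 to 534 CPM in HFD-NS livers. The list of 9 macrophage markers summed to 61.6 to 149.6 CPM in HFD-337 livers, where 2 fell, and to 237 to 680.3 CPM in HFD-338 livers, where 3 rose, against 191 to 254 CPM in HFD-NS livers. Of 8 endothelial markers, 8 fell in HFD-337 and 6 in HFD-338 livers, and the list summed to 73.4 to 95.5 CPM in HFD-337 livers and 87.6 to 167 CPM in HFD-338 livers, against 216 to 265 CPM in HFD-NS livers. In whole tissue, fewer cells of a type and less RNA per cell cannot be told apart, and the part of these shifts in the results below was not tested. In HFD-337 livers, calls also went with gene span: of 3545 genes under 10 kb, 39.97% rose and 9.87% fell, and of 1583 genes over 100 kb, 8.46% rose and 42.4% fell; 5 of the genes described here (Plin4, Plin5, Cideb, Fitm2 and G0s2) span under 10 kb and the other 5 span 10 to 100 kb.

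All 10 genes passed the filter on low counts, and all would have passed it without the group in which they were highest. A gene was called changed at an adjusted p under 0.05, computed over the 13189 genes tested. In HFD-NS livers against SD-NS livers, 6 of the 10 were called, where 28.1% of all genes were; 5 fell (Plin2, Plin5, Fitm2, Hsd17b13 and G0s2), where 16.1% of all genes fell, and Cidea rose. In HFD-337 livers against HFD-NS livers, 1 (Cideb) rose, 7 fell and 2 (Plin4 and Cidec) were not called, where 24.4% of all genes rose and 22.8% fell. In HFD-338 livers, none rose, 8 fell and 2 (Plin2 and Plin3) were not called, where 18.9% of all genes rose and 17.9% fell. In HFD-Res livers, 3 fell (Plin4, Cidea and Hsd17b13) and 7 were not called, where 6.22% of all genes rose and 6.74% fell. The median log2 fold change of the 10 genes was -0.81 in HFD-337 livers, -1.01 in HFD-338 livers and -0.41 in HFD-Res livers, beside 0.03, 0.00093 and 0.0075 over all genes. It was -0.45 in HFD-NS over SD-NS livers, beside -0.02 over all genes. The 3 comparisons with HFD-NS share its 3 libraries.

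**Figure D1:**
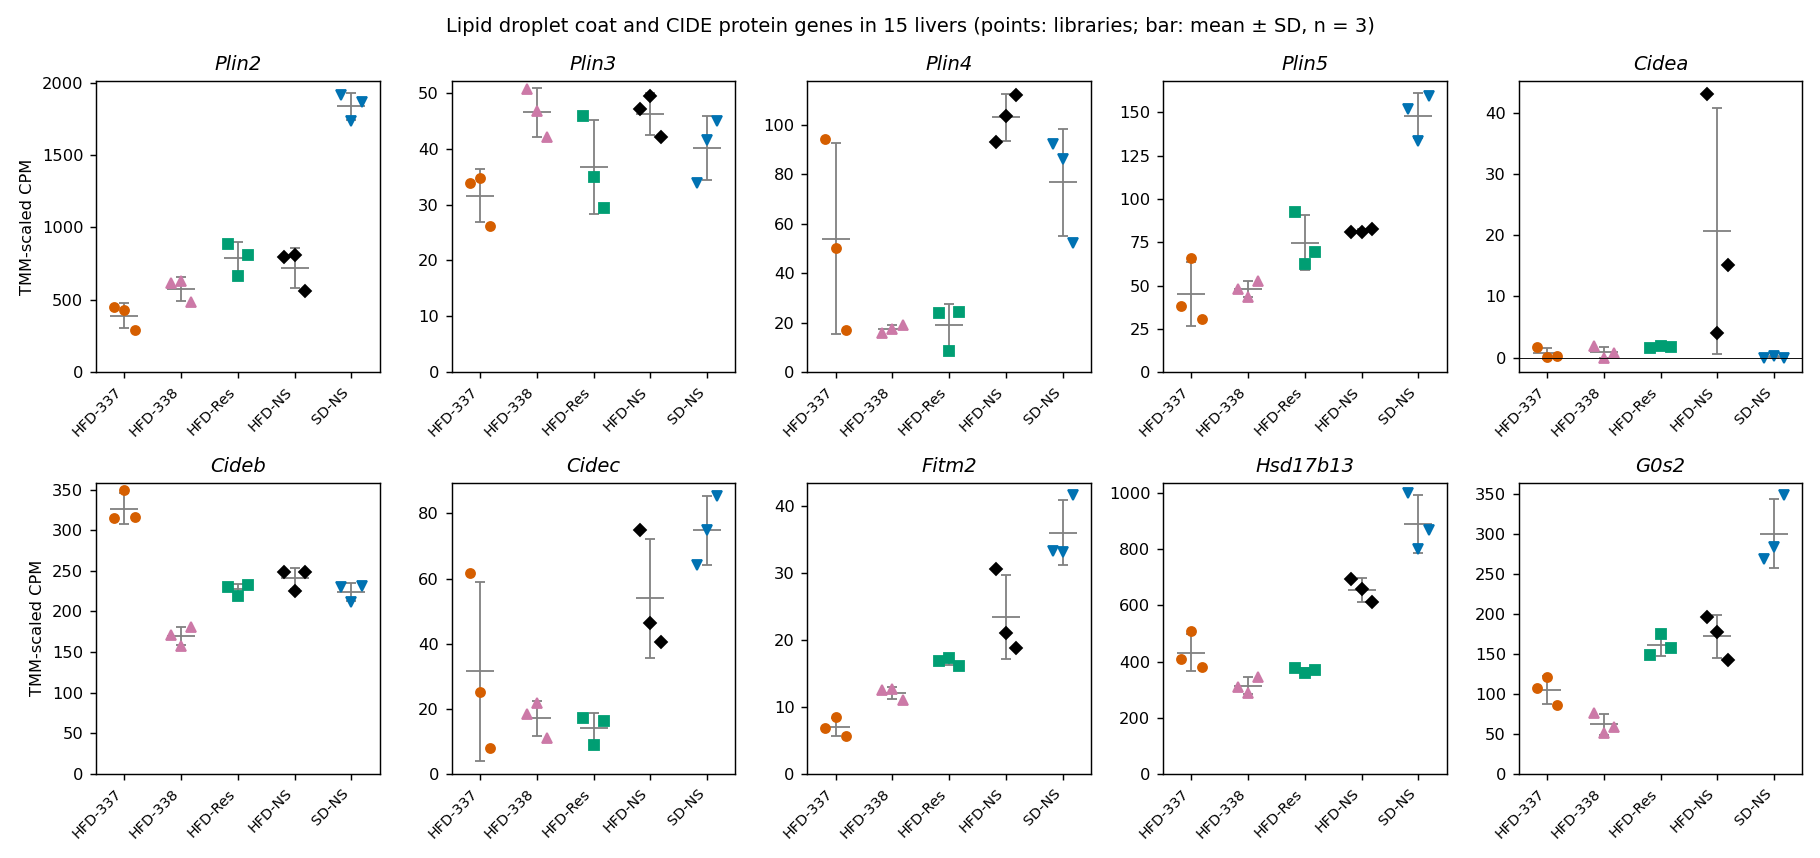
Each panel plots 1 gene's level in CPM (vertical axis, linear, a scale for each panel) in the 15 livers by group (horizontal axis); points are libraries and bars are means with SD (n = 3). Plin2 stood at no more than 887 CPM in any HFD liver and at 1732 to 1912 CPM in SD-NS livers; Cidea was at no more than 1.84 CPM in HFD-337, HFD-338 or HFD-Res livers, at 4.10 to 43.1 CPM in HFD-NS livers and at no more than 0.194 CPM in SD-NS livers.

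Plin2, the coat protein that accumulates with neutral lipid in hepatocytes (mm39 chr4:86574802-86588296, minus strand), was lower in each diet-fed group than in SD-NS livers. It had 447, 432 and 291 CPM in HFD-337 livers, 616, 630.5 and 483 CPM in HFD-338 livers, 887, 666 and 806 CPM in HFD-Res livers, 793, 807 and 562 CPM in HFD-NS livers and 1912, 1732 and 1864 CPM in SD-NS livers. No library of the 4 HFD groups reached the SD-NS range, and HFD-NS livers held 39.3% of the SD-NS mean, a log2 fold change of -1.35 ± 0.17 (adjusted p = 2.39e-05). HFD-337 livers lay below the HFD-NS range, with no overlap, at -0.89 ± 0.17 (adjusted p = 3.87e-04). HFD-338 and HFD-Res livers overlapped it, at -0.32 ± 0.17 (adjusted p = 0.146) and 0.13 ± 0.17 (adjusted p = 0.701). The HFD-338 value was called in 1 of 13 alternatives: without HFD-NS replicate 16, the lowest of its group, it was -0.48 with an adjusted p of 0.0358.

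Plin5, which tethers droplets to mitochondria and is tied to fatty acid oxidation, ran close to Plin2, with a Pearson correlation of log2 CPM of 0.91 over the 15 libraries, which share the group differences. Its levels were 38.4, 65.7 and 30.6 CPM in HFD-337 livers, 47.9, 43.7 and 52.6 CPM in HFD-338 livers, 92.5, 62.6 and 69.4 CPM in HFD-Res livers, 80.9, 80.7 and 82.6 CPM in HFD-NS livers and 152, 134 and 159 CPM in SD-NS livers. The HFD-NS libraries lay within 1.02-fold of each other, and all were below the lowest SD-NS library, at -0.86 ± 0.21 (adjusted p = 0.00859). Against HFD-NS, Plin5 fell in HFD-337 livers at -0.83 ± 0.22 (adjusted p = 0.0066) and in HFD-338 livers at -0.76 ± 0.21 (adjusted p = 0.0137), and none of those 6 libraries reached the HFD-NS range. Leaving out HFD-338 replicate 18 ended the HFD-338 call, at an adjusted p of 0.0604. HFD-Res livers lay on both sides of the HFD-NS range, at -0.12 ± 0.21 (adjusted p = 0.779).

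Plin3, a soluble perilipin that moves onto young droplets, had its lowest mean in HFD-337 livers. It stood at 33.9, 34.8 and 26.2 CPM in HFD-337 livers, 50.7, 46.8 and 42.0 CPM in HFD-338 livers, 45.8, 35.0 and 29.3 CPM in HFD-Res livers, 47.2, 49.4 and 42.1 CPM in HFD-NS livers and 33.8, 41.6 and 45.001 CPM in SD-NS livers. HFD-NS livers overlapped SD-NS livers, at 0.22 ± 0.15 (adjusted p = 0.306). All HFD-337 libraries lay below the HFD-NS range, at -0.54 ± 0.15 (adjusted p = 0.00623). In HFD-338 livers the log2 fold change was 0.01 ± 0.14 (adjusted p = 0.964), its sign turning with the setting. In HFD-Res livers it was -0.34 ± 0.15 (adjusted p = 0.157). That was called in 1 of 13 alternatives, without HFD-Res replicate 29, at -0.53 with an adjusted p of 0.0283.

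Plin4 and Plin5 are neighbours on chromosome 17, on the minus strand of build mm39 at chr17:56407589-56416782 and chr17:56418601-56424548, but their levels did not run together (Pearson correlation 0.50). Plin4, a perilipin with a long amphipathic repeat that binds young droplets in adipocytes and muscle, was the coat gene that fell furthest in HFD-338 and HFD-Res livers. It had 94.3, 50.4 and 17.3 CPM in HFD-337 livers, 15.8, 17.4 and 19.1 CPM in HFD-338 livers, 23.8, 8.74 and 24.3 CPM in HFD-Res livers, 93.2, 104 and 112 CPM in HFD-NS livers and 92.1, 86.1 and 52.0 CPM in SD-NS livers. The highest of the 6 HFD-338 and HFD-Res libraries was at 24.3 CPM and the lowest HFD-NS library at 93.2 CPM. The log2 fold changes were -2.56 ± 0.51 (adjusted p = 0.00274) in HFD-338 livers and -2.41 ± 0.52 (adjusted p = 0.0115) in HFD-Res livers, and both calls held in each of the 13 alternatives tried. The diet comparison gave 0.41 ± 0.46 (adjusted p = 0.56), with HFD-NS libraries above the SD-NS range by a narrow margin.

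HFD-337 livers did not form 1 level for Plin4. Replicate 23 was in the HFD-NS range, replicate 27 in the range of HFD-338 and HFD-Res livers, and replicate 26 between them, a 5.47-fold spread, against 1.21-fold within HFD-338, 2.78-fold within HFD-Res, 1.204-fold within HFD-NS and 1.77-fold within SD-NS livers. Cidec, below, spread 7.79-fold over the same livers in the same order. The log2 fold change of Plin4 in HFD-337 over HFD-NS livers was -0.93 ± 0.47 (adjusted p = 0.131); it was called in 2 of 13 alternatives, at -1.55 with an adjusted p of 0.0183 without replicate 23 and at -1.27 with 0.0451 in limma-voom with quality weights. The depth of replicates 23, 26 and 27 was 4681937, 8995337 and 5060839 reads. The bile duct and stellate cell marker sums were highest in replicate 23, at 264 and 356 CPM, against lowest sums of 85.9 and 187 CPM. The hepatocyte sum was highest in replicate 26, at 157716 CPM. The part of depth or of these shifts in the spread was not tested.

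Per unit length, in TPM (the count divided by exon length, as a share of each library's sum), Plin2 made up most of the perilipin mRNA in every group. Its share of the summed TPM of Plin2 to Plin5 was 82.3% ± 1.80 in HFD-337 livers, 86.3% ± 1.96 in HFD-338 livers, 88.1% ± 1.13 in HFD-Res livers, 82.8% ± 3.03 in HFD-NS livers and 90.4% ± 0.224 in SD-NS livers (SD, n = 3 each). The summed level itself was 448 ± 124 TPM in HFD-337 livers, 758 ± 119 TPM in HFD-338 livers, 917 ± 111 TPM in HFD-Res livers, 897 ± 164 TPM in HFD-NS livers and 1941 ± 128 TPM in SD-NS livers. The SD-NS sum was thus the highest and the HFD-337 sum the lowest. Plin3 took 4.70% ± 0.425 of the sum in HFD-NS livers and 1.73% ± 0.288 in SD-NS livers, and Plin4 3.64% ± 0.946 and 1.13% ± 0.329 in those groups (SD, n = 3 each). In HFD-338 and HFD-Res livers Plin4 was down to 0.795% ± 0.174 and 0.613% ± 0.239 of the sum.

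**Figure D2:**
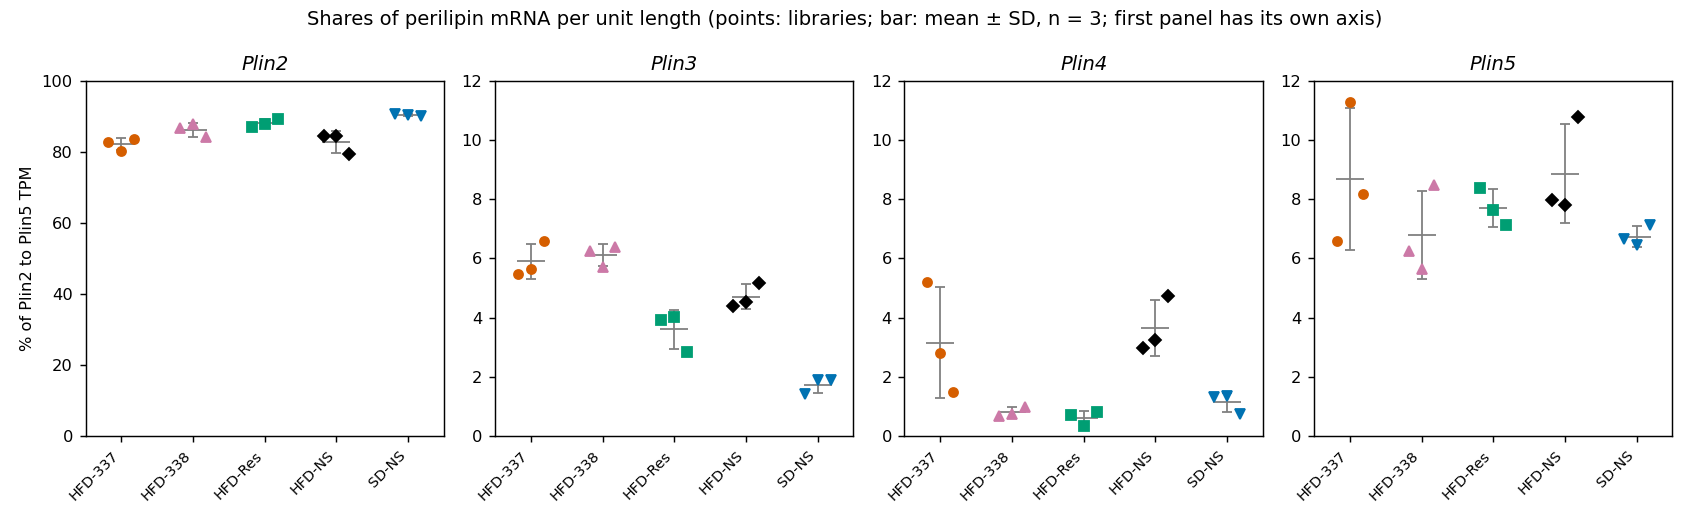
Each panel plots the share of 1 gene in the summed TPM of Plin2 to Plin5 (vertical axis, percent; the Plin2 panel runs to 100 and the others to 12) by group; points are libraries and bars are means with SD (n = 3). Plin2 held between 79.3% and 90.6% in each library, and the Plin4 share was at or below 0.993% in each HFD-338 and HFD-Res library.

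Cidea, the CIDE gene best known from brown fat and from fatty liver, was all but absent outside HFD-NS livers. Its level was 1.77, 0.115 and 0.203 CPM in HFD-337 livers, 1.82, 0 and 0.785 CPM in HFD-338 livers, 1.499, 1.84 and 1.74 CPM in HFD-Res livers, 43.1, 4.10 and 15.1 CPM in HFD-NS livers and 0, 0.194 and 0 CPM in SD-NS livers. HFD-NS livers were thus the highest group without overlap, although they differed 10.5-fold among themselves. Summed over the 3 libraries of each group, it had 11 reads in HFD-337, 22 in HFD-338, 27 in HFD-Res, 545 in HFD-NS and 1 in SD-NS livers. The ratio of HFD-NS to SD-NS livers from these sums was 338, with a 95% interval of 60.5 to 13392 that covers counting error only.

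The fitted log2 fold changes of Cidea were -5.07 ± 1.09 (adjusted p = 0.00285) for HFD-337, -4.51 ± 0.96 (adjusted p = 0.00372) for HFD-338 and -3.60 ± 0.94 (adjusted p = 0.0282) for HFD-Res livers over HFD-NS livers, and 8.02 ± 1.58 (adjusted p = 0.00366) in HFD-NS over SD-NS livers. These values rest on few reads outside HFD-NS livers and the last depends on the prior count. Over the 13 alternatives the adjusted p ran from 2.24e-04 to 0.164 for HFD-337, from 3.41e-04 to 0.0815 for HFD-338, from 0.00284 to 0.263 for HFD-Res and from 2.05e-05 to 0.0932 for the diet, and the HFD-Res call held in 6 of them. Adipocyte markers were examined beside it, since Cidea is also a fat cell gene: the 10 listed summed to 90.02 to 141 CPM in HFD-337, 34.2 to 54.2 CPM in HFD-338, 14.5 to 21.4 CPM in HFD-Res, 31.4 to 45.8 CPM in HFD-NS and 16.3 to 18.4 CPM in SD-NS livers, and only 4 passed the filter on low counts. Most of the HFD-337 sum was 1 gene, Adrb3, a beta-adrenergic receptor, at 94.5, 68.9 and 92.1 CPM. Of the defining ones, Lep and Ucp1 had no read in any library, Plin1 had 1 read in all and Adipoq at most 2 reads in a library. Cfd, which encodes the complement factor adipsin, had 29.3, 10.03 and 5.28 CPM in HFD-337 livers, 0.798, 0.371 and 1.05 CPM in HFD-338 livers, 0.428, 0 and 0 CPM in HFD-Res livers, 9.57, 5.59 and 14.8 CPM in HFD-NS livers and 0, 0.389 and 0 CPM in SD-NS livers. Fabp4, the fatty acid carrier of fat cells and macrophages, had 16.3 to 21.95 CPM in HFD-NS livers and 6.61 to 9.45 CPM in SD-NS livers. It had 8.86, 4.15 and 4.46 CPM in HFD-337, 17.1, 9.65 and 6.81 CPM in HFD-338 and 16.3, 9.66 and 13.5 CPM in HFD-Res livers. Cfd was thus high in HFD-NS livers, as Cidea was, and in HFD-337 livers, where Cidea was not. Fabp4, like Cidea, was lower in each HFD-337 library than in every HFD-NS library. The part of these genes in the Cidea result was not tested.

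Cidec (mm39 chr6:113401595-113412721, minus strand), which enlarges droplets and is a PPAR gamma target in fatty mouse liver, did not rise with the diet. Its levels were 61.6, 25.0 and 7.92 CPM in HFD-337 livers, 18.4, 21.6 and 11.1 CPM in HFD-338 livers, 17.1, 8.97 and 16.3 CPM in HFD-Res livers, 74.8, 46.3 and 40.6 CPM in HFD-NS livers and 64.0, 75.0 and 85.2 CPM in SD-NS livers. HFD-NS and SD-NS livers overlapped, at -0.46 ± 0.51 (adjusted p = 0.545). Every HFD-338 and HFD-Res library lay below the lowest HFD-NS library. The log2 fold change was -1.66 ± 0.55 (adjusted p = 0.0362) in HFD-338 livers, a call that held in 6 of 13 alternatives, and -1.91 ± 0.58 (adjusted p = 0.0577) in HFD-Res livers, where 3 of 13 alternatives made it. In HFD-337 livers it was -0.78 ± 0.53 (adjusted p = 0.255). It was called there in 1 of 13 alternatives, without replicate 23, at -1.63 with an adjusted p of 0.0175. Against SD-NS livers Cidec fell in HFD-338 at -2.12 ± 0.55 (adjusted p = 0.00911) and in HFD-Res livers at -2.38 ± 0.59 (adjusted p = 0.0126), each held in all 13 alternatives.

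Plin4 and Cidec had a Pearson correlation of log2 CPM of 0.88 over the libraries, which share their groups. By that measure each was among the 3 tested genes most like the other, with predicted and clone-based gene names left out. By Spearman correlation neither was. Within HFD-337 livers both genes were highest in replicate 23 and lowest in replicate 27. Within HFD-NS livers their order was opposite, with Plin4 at 93.2, 104 and 112 CPM and Cidec at 74.8, 46.3 and 40.6 CPM. Within SD-NS livers it was opposite too.

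**Figure D3:**
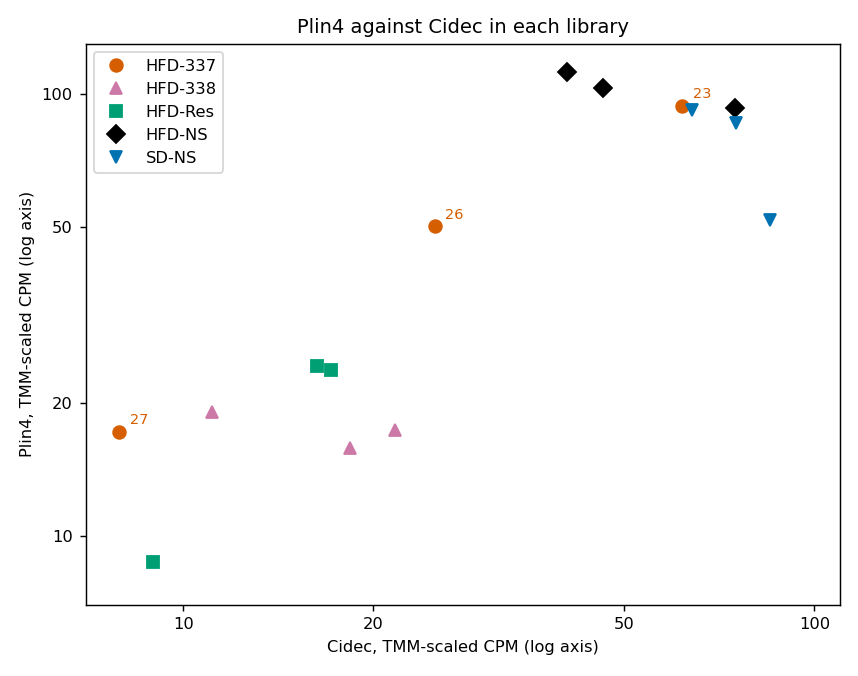
Each point is 1 of 15 libraries, with Cidec on the horizontal and Plin4 on the vertical axis, both in CPM on log axes; the numbers mark the HFD-337 replicates. HFD-338 and HFD-Res livers sit at low values of both genes, HFD-NS and SD-NS livers at high values, and the 3 HFD-337 livers run from 94.3 CPM of Plin4 in replicate 23 to 17.3 CPM in replicate 27.

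Cideb, the CIDE protein of the healthy hepatocyte, which takes part in loading lipid onto very low density lipoproteins, was the only one of the 10 genes called in opposite directions in HFD-337 and HFD-338 livers. It had 315, 349 and 316 CPM in HFD-337 livers, 171, 158 and 180.2 CPM in HFD-338 livers, 229.9, 219 and 233 CPM in HFD-Res livers, 248, 226 and 249 CPM in HFD-NS livers and 229.6, 212 and 232 CPM in SD-NS livers. HFD-337 livers lay above and HFD-338 livers below every library of the other groups, at 0.44 ± 0.09 (adjusted p = 4.38e-04) and -0.51 ± 0.09 (adjusted p = 1.99e-04) over HFD-NS livers. HFD-Res over HFD-NS livers gave -0.08 ± 0.09 (adjusted p = 0.61) and HFD-NS over SD-NS livers 0.10 ± 0.09 (adjusted p = 0.414). The last was called in 2 of 13 alternatives, and on the TPM scale it was 0.21 with an adjusted p of 0.0469.

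These reads cannot be assigned to Cideb alone. On build mm39 the gene lies at chr14:55991511-55995881 on the minus strand, and 72.9% of its exon length is shared with exons of Nop9, a gene for a pre-ribosomal RNA-binding protein on the plus strand at chr14:55983150-55993091. Reads were counted without regard to strand and for every gene they overlapped. Nop9 had 321, 336 and 314 CPM in HFD-337 livers, 151, 139.5 and 155 CPM in HFD-338 livers, 202, 195 and 215 CPM in HFD-Res livers, 216, 193 and 215 CPM in HFD-NS livers and 200.5, 191 and 204 CPM in SD-NS livers. Its log2 fold changes over HFD-NS livers were 0.64 ± 0.09 (adjusted p = 7.81e-06) in HFD-337 livers and -0.49 ± 0.09 (adjusted p = 2.18e-04) in HFD-338 livers. It moved as Cideb did, and which of the pair the reads came from cannot be told apart. The Cideb level minus the Nop9 level was 2.69 ± 9.25 CPM in HFD-337 livers, 20.9 ± 3.77 CPM in HFD-338 livers, 23.4 ± 5.15 CPM in HFD-Res livers, 32.6 ± 1.11 CPM in HFD-NS livers and 25.8 ± 4.43 CPM in SD-NS livers (SD, n = 3 each). It was lowest in HFD-337 livers, where Cideb was highest, and next lowest in HFD-338 livers, where Cideb was lowest. Nop9 also extends beyond Cideb, so the difference does not measure reads of Cideb alone.

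**Figure D4:**
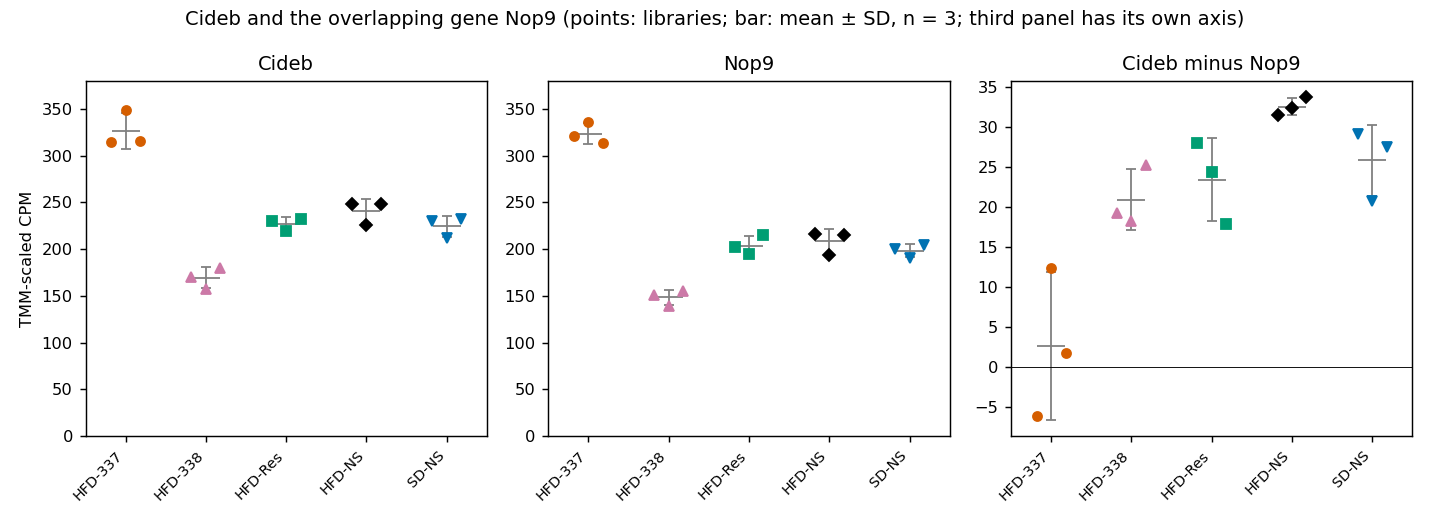
The panels plot Cideb, Nop9 and their difference in CPM (vertical axes, the third with its own scale) by group; points are libraries and bars are means with SD (n = 3). Cideb and Nop9 are both highest in HFD-337 and lowest in HFD-338 livers, and the difference runs from -6.10 to 12.3 CPM in HFD-337 livers against 31.5 to 33.7 CPM in HFD-NS livers.

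Fitm2, an endoplasmic reticulum protein needed to bud triglyceride into droplets (mm39 chr2:163310623-163314549, minus strand), fell in HFD-337 and HFD-338 livers and with the diet. It had 6.89, 8.41 and 5.68 CPM in HFD-337 livers, 12.5, 12.6 and 10.99 CPM in HFD-338 livers, 16.9, 17.3 and 16.1 CPM in HFD-Res livers, 30.6, 20.98 and 18.8 CPM in HFD-NS livers and 33.3, 33.1 and 41.6 CPM in SD-NS livers. No HFD-337, HFD-338 or HFD-Res library reached the lowest HFD-NS library, and no HFD-NS library reached SD-NS livers. HFD-337 livers held 29.8% of the HFD-NS mean, at -1.71 ± 0.19 (adjusted p = 8.32e-07), and HFD-338 livers 51.4%, at -0.96 ± 0.17 (adjusted p = 2.16e-04). The change in HFD-Res livers was -0.49 ± 0.17 (adjusted p = 0.0684). It was called in 1 of 13 alternatives, without HFD-NS replicate 16, at -0.63 with an adjusted p of 0.0245. The diet comparison gave -0.61 ± 0.16 (adjusted p = 0.00804), and that call was lost in 3 of 13 alternatives, without HFD-NS replicate 16 (adjusted p = 0.0505) and on the TPM scale with either pseudocount (adjusted p = 0.0524 and 0.058). The gene shares 5.17% of its exon length with 2310001K24Rik.

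Hsd17b13, a hepatocyte droplet enzyme that oxidises retinol and whose loss-of-function variants in people go with milder liver disease (mm39 chr5:104103308-104125254, minus strand), was called in all 4 comparisons and fell in each. Its levels were 409, 507 and 381 CPM in HFD-337 livers, 309, 287 and 346 CPM in HFD-338 livers, 376, 361 and 369 CPM in HFD-Res livers, 694, 658 and 611 CPM in HFD-NS livers and 1001, 800.0 and 867 CPM in SD-NS livers. All treated diet-fed livers lay below HFD-NS livers and HFD-NS livers below SD-NS livers. Over HFD-NS livers the log2 fold changes were -0.60 ± 0.12 (adjusted p = 3.65e-04) for HFD-337, -1.06 ± 0.12 (adjusted p = 2.38e-06) for HFD-338 and -0.83 ± 0.12 (adjusted p = 6.40e-05) for HFD-Res livers. The sum of the hepatocyte markers, mostly Alb, was also lower in HFD-338 and HFD-Res than in HFD-NS livers, as given above. Its part in the HFD-338 and HFD-Res values was not tested. With the diet Hsd17b13 gave -0.44 ± 0.12 (adjusted p = 0.00825), a call lost without SD-NS replicate 6 (adjusted p = 0.0550).

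G0s2, the inhibitor of the triglyceride lipase ATGL (Pnpla2), lies at mm39 chr1:192954468-192955496 on the minus strand and fell with the diet and in HFD-337 and HFD-338 livers. It stood at 108, 121 and 86.1 CPM in HFD-337 livers, 76.5, 50.7 and 58.6 CPM in HFD-338 livers, 149, 175 and 158 CPM in HFD-Res livers, 196, 178 and 143 CPM in HFD-NS livers and 269, 284 and 349 CPM in SD-NS livers. The groups HFD-337, HFD-338 and HFD-NS did not overlap each other or SD-NS livers, while HFD-Res livers lay within the HFD-NS range. The log2 fold changes over HFD-NS livers were -0.71 ± 0.16 (adjusted p = 0.00164) for HFD-337, -1.47 ± 0.16 (adjusted p = 5.33e-06) for HFD-338 and -0.10 ± 0.16 (adjusted p = 0.759) for HFD-Res livers. HFD-NS over SD-NS livers gave -0.80 ± 0.16 (adjusted p = 0.00135). Pnpla2 itself had 28.5 ± 2.56 CPM in HFD-337 livers and 49.9 ± 1.66 CPM in HFD-NS livers, and 94.6 ± 5.56 CPM in SD-NS livers (SD, n = 3 each). On the log2 scale it fell in HFD-337 livers (-0.80), in HFD-338 livers (-0.39) and with the diet (-0.92), the same comparisons in which its inhibitor fell.

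**Figure D5:**
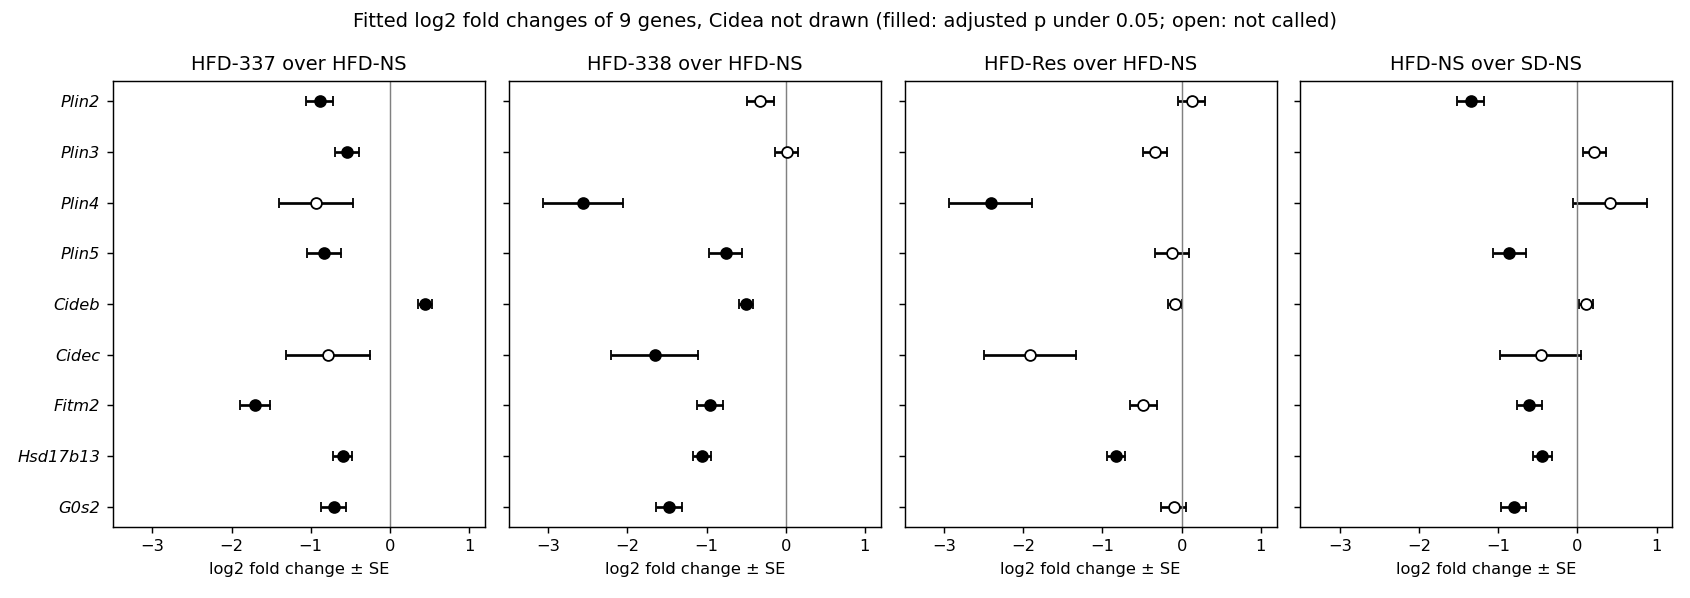
Fitted log2 fold changes (horizontal axis) with their SE for 9 genes; shown are HFD-337, HFD-338 and HFD-Res livers over HFD-NS livers and HFD-NS over SD-NS livers; filled points have an adjusted p under 0.05, and Cidea is left out for its scale. Hsd17b13 is filled and below 0 in all 4 panels, and Cideb is above 0 in HFD-337 and below 0 in HFD-338 livers.

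The treated groups were also set against each other. Doses and durations are not given in the sources used here, so the differences compare these groups of livers as they were collected. In HFD-337 livers against HFD-338 livers 7 of the 10 genes were called, where 58.4% of all genes were. Plin2 (-0.56), Plin3 (-0.55) and Fitm2 (-0.75) were lower and Cideb (0.95), G0s2 (0.76), Hsd17b13 (0.46) and Plin4 (1.63) higher on the log2 scale, with adjusted p from 1.06e-07 for Cideb to 0.0193 for Plin4. The Plin4 call held in 7 of 13 alternatives, and the Hsd17b13 call was lost on the TPM scale (adjusted p = 0.198). Without HFD-337 replicate 26 Plin5 was called lower (-0.47, adjusted p = 0.0142), and without HFD-337 replicate 27 Cidec was called higher (1.28, adjusted p = 0.0297). Each was called in only 1 of 13 alternatives.

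HFD-337 livers against HFD-Res livers gave 6 calls, where 47.6% of all genes were called: Plin2 (-1.01), Plin5 (-0.71), Fitm2 (-1.22) and G0s2 (-0.61) were lower and Cideb (0.52) and Plin4 (1.48) higher. The Plin4 call held in 3 of 13 alternatives and the Plin5 call in 10. HFD-338 livers against HFD-Res livers gave 5 calls, all lower, where 43.1% of all genes were called: Plin2 (-0.45), Plin5 (-0.64), Cideb (-0.42), Fitm2 (-0.47) and G0s2 (-1.37). The Cideb and G0s2 calls held in all 13 alternatives, the Plin2 call in 7, the Plin5 call in 6 and the Fitm2 call in 3. Plin3, not called as reported, was called higher in 4. Of the 5 calls G0s2 was the largest, at -1.37 ± 0.16 (adjusted p = 6.70e-06). Plin4 and Cidec, low in both groups, gave -0.15 ± 0.56 (adjusted p = 0.855) and 0.26 ± 0.62 (adjusted p = 0.769), with standard errors that leave room for a sizeable difference either way.

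Set against SD-NS livers, 7 genes fell in HFD-Res livers, where 26.9% of all genes were called and 2026 of 13189 fell. In HFD-338 livers 8 fell, where 48.7% of all genes were called and 3396 of 13189 fell. In HFD-337 livers 5 fell and Cideb rose, where 55.2% of all genes were called, 3575 of 13189 falling and 3706 rising. Plin2, Plin5, Fitm2, Hsd17b13 and G0s2 fell in all 3, and of these the furthest below SD-NS livers was Fitm2 in HFD-337 livers, at -2.31 ± 0.19 (adjusted p = 8.17e-09). The HFD-Res call of Plin4 was lost without HFD-Res replicate 30 (adjusted p = 0.0546) or SD-NS replicate 6 (adjusted p = 0.0545), and the HFD-338 call of Cideb on the TPM scale (-0.16, adjusted p = 0.0918). None of the 5 genes that fell with the diet was higher in a treated group than in SD-NS livers.

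Other proteins of droplet assembly and of the droplet surface changed in both directions. Of 32 listed, 28 were in the table and 27 were tested. With the diet 4 rose and 8 fell (over all genes, 28.1% were called and 16.1% fell), in HFD-337 livers 2 rose and 10 fell (24.4% and 22.8% of all genes), in HFD-338 livers 5 rose and 9 fell (18.9% and 17.9% of all genes), and in HFD-Res livers 4 rose and 3 fell (6.22% and 6.74% of all genes). The median log2 fold change of the list was -0.20 with the diet, -0.23 for HFD-337, -0.17 for HFD-338 and 0.00033 for HFD-Res livers. Fitm1, the paralog of Fitm2 known from muscle, rose with the diet and fell in HFD-338 and HFD-Res livers: it had 3.70 ± 1.21 CPM in HFD-338 livers and 27.1 ± 3.71 CPM in HFD-NS livers, and 3.67 ± 1.62 CPM in SD-NS livers (SD, n = 3 each). Its log2 fold changes were 2.85 for the diet, -2.85 for HFD-338 and -0.96 for HFD-Res livers, so that it and Fitm2 went opposite ways with the diet; in HFD-337 livers it had 36.3 ± 16.5 CPM and was not called (0.41, adjusted p = 0.216). Retsat, a retinol saturase, fell with the diet (-1.29), in HFD-337 (-1.68) and in HFD-338 livers (-2.07). The sterol enzymes Nsdhl (2.83) and Hsd17b7 (2.52), which can sit on droplets, rose in HFD-Res livers, and with the diet Nsdhl rose (1.38) and Hsd17b7 fell (-1.07). Hsd17b11, a relative of Hsd17b13, fell in HFD-Res livers (-0.70). In HFD-337 livers Pcyt1a, which limits phosphatidylcholine synthesis, fell (-0.92), and the droplet proteins Aup1 (0.57) and Mettl7b (0.27) rose. In HFD-338 livers Cav1, which encodes caveolin (1.75), and the phospholipase D gene Pld1 (1.302) rose. Bscl2, which encodes seipin, a protein of droplet budding sites, rose with the diet (0.68) and fell in HFD-338 livers (-0.59). Plin1, the adipocyte perilipin, was not tested.

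Genes of droplet lipolysis and lipophagy were tested for 16 of 18. With the diet 1 rose and 4 fell (over all genes, 28.1% were called and 16.1% fell), in HFD-337 livers 3 rose and 6 fell (24.4% and 22.8% of all genes), in HFD-338 livers none rose and 4 fell (18.9% and 17.9% of all genes), and in HFD-Res livers 2 rose and 2 fell (6.22% and 6.74% of all genes). The median log2 fold change of the list was -0.034 with the diet, -0.094 for HFD-337, -0.22 for HFD-338 and -0.069 for HFD-Res livers. Pnpla3, a droplet lipase gene whose human variant is linked to fatty liver, rose in HFD-Res livers, with 11.3 ± 5.96 CPM in HFD-Res livers and 0.601 ± 0.522 CPM in HFD-NS livers (SD, n = 3 each), a log2 fold change of 4.27 (adjusted p = 3.25e-05). It was not called in HFD-337 (0.99) or HFD-338 livers (0.68). Abhd5, the co-activator of ATGL, was not called in any of the 4 comparisons. Lipa, the lysosomal acid lipase, fell with the diet (-0.78) and in HFD-337 livers (-1.13), and Ces1d, a triglyceride hydrolase, fell in HFD-337 (-1.13) and HFD-338 livers (-1.58). The related carboxylesterases did not move as a block: Ces3a (1.08) and Ces3b (1.69) rose in HFD-337 livers, Ces3a (-0.85) fell in HFD-Res livers, Ces1f fell in HFD-338 (-2.68) and HFD-Res livers (-0.87), and Ces1g rose with the diet (1.19). These are close copies of one another, so their counts are uncertain. Mgll, which cleaves monoglyceride, rose in HFD-Res livers (0.93).

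Triglyceride synthesis was tested for 14 of 15 genes. With the diet 2 rose and 5 fell (over all genes, 28.1% were called and 16.1% fell), in HFD-337 livers 2 rose and 7 fell (24.4% and 22.8% of all genes), in HFD-338 livers 1 rose and 6 fell (18.9% and 17.9% of all genes), and in HFD-Res livers none rose and 1 fell (6.22% and 6.74% of all genes). The median log2 fold change of the list was 0.0055 with the diet, -0.34 for HFD-337, -0.44 for HFD-338 and -0.012 for HFD-Res livers. Mogat1, a monoacylglycerol acyltransferase known from fatty liver, had 3.05 ± 0.943 CPM in HFD-338 livers and 11.7 ± 3.996 CPM in HFD-NS livers and 0.855 ± 0.471 CPM in SD-NS livers (SD, n = 3 each); it rose with the diet (3.66) and fell in HFD-338 livers (-1.94). Dgat2, one of the enzymes of the last step of triglyceride synthesis, rose with the diet (1.08) and fell in HFD-337 (-0.39) and HFD-338 livers (-1.06). Dgat1, the other enzyme of that step, fell with the diet (-0.70) and rose in HFD-337 livers (0.59). Agpat1, an acyltransferase of the second step, also rose in HFD-337 livers (1.14), where the phosphatidic acid phosphatase Lpin1 (-1.76) and the first-step acyltransferase Gpat3 (-1.05) fell. Of the other phosphatases, Lpin2 fell with the diet (-1.30) and Lpin3 rose in HFD-338 livers (1.25). Gpat4, also of the first step, fell with the diet (-1.14) and was the gene of this list that fell in HFD-Res livers (-0.54).

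Regulators of these genes were tested for all 16 listed. With the diet 2 rose and 5 fell (over all genes, 28.1% were called and 16.1% fell), in HFD-337 livers 6 rose and 5 fell (24.4% and 22.8% of all genes), in HFD-338 livers none rose and 10 fell (18.9% and 17.9% of all genes), and in HFD-Res livers 2 rose and none fell (6.22% and 6.74% of all genes). The median log2 fold change of the list was -0.20 with the diet, -0.008 for HFD-337, -0.43 for HFD-338 and 0.014 for HFD-Res livers. Pparg, at low level, had 8.74 ± 1.97 CPM in HFD-337 livers and 12.9 ± 2.18 CPM in HFD-NS livers, with 7.95 ± 1.74 CPM in HFD-338, 8.58 ± 0.733 CPM in HFD-Res and 5.86 ± 1.79 CPM in SD-NS livers (SD, n = 3 each). It rose with the diet (1.11) and fell in HFD-337 (-0.56) and HFD-338 livers (-0.69), with -0.59 and an adjusted p of 0.085 in HFD-Res livers. Ppara fell with the diet (-0.47), in HFD-337 (-1.14) and in HFD-338 livers (-0.87) and was not called in HFD-Res livers (-0.23). Ppargc1a was not called in any of the 4. Mlxipl, which encodes the carbohydrate-responsive factor ChREBP, rose in HFD-337 (1.24) and HFD-Res livers (0.45), and Esrra, the estrogen-related receptor alpha gene, rose in HFD-337 livers (1.39). Hnf4a, a hepatocyte nuclear receptor gene, fell in HFD-337 (-0.74) and HFD-338 livers (-0.80). Srebf1, of lipid synthesis, rose with the diet (1.40), and Foxo1, of the fasting response, fell with the diet (-0.82) and rose in HFD-Res livers (0.45).

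Most of the PPAR alpha targets of fatty acid oxidation fell in 3 of the 4 comparisons made for the lists. All 20 were tested. With the diet none rose and 18 fell (over all genes, 28.1% were called and 16.1% fell), in HFD-337 livers none rose and 19 fell (24.4% and 22.8% of all genes), in HFD-338 livers none rose and 17 fell (18.9% and 17.9% of all genes), and in HFD-Res livers 2 rose and 3 fell (6.22% and 6.74% of all genes). The median log2 fold change of the list was -0.66 with the diet, -1.15 for HFD-337, -0.70 for HFD-338 and -0.069 for HFD-Res livers. Whether HFD-Res livers differed from the other groups in this list was not tested. Ehhadh, a peroxisomal oxidation enzyme, fell with the diet (-3.31) and in HFD-337 livers (-2.04) and rose in HFD-Res livers (0.57). Pdk4, a kinase that restrains glucose oxidation, fell with the diet (-3.48). Cyp4a14, a fatty acid hydroxylase, fell in HFD-337 (-2.52) and HFD-338 livers (-2.64), and the thiolase Acaa1b fell in HFD-338 livers (-1.77). In HFD-Res livers Acadm (-0.69), of mitochondrial oxidation, fell, and Fgf21, a liver hormone gene, rose (2.91).

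Likeness of pattern was taken as the Pearson correlation of log2 CPM over the 15 libraries, which reflects the 5 groups and is given as a description. Predicted and clone-based gene names were left out of the ranking. For Plin5 the 3 most like genes were Cyp4a14 (0.98), Slc25a20 (0.96) and Cyp4a10 (0.96), all in the PPAR alpha list. For G0s2 they were Cpt2 (0.96) and Acaa1b (0.96), also in that list, and Cald1 (0.95), which is not. Plin2 was most like Insig2 (0.98), Pxmp4 (0.97) and Slc22a5 (0.96), and Fitm2 most like Nf1 (0.97), Fbxl17 (0.97) and Wsb2 (0.97). Hsd17b13 was most like Gucd1 (0.97), Cidec like Arel1 (0.93), Plin4 like Mreg (0.89) and Plin3 like Trmt6 (0.87). For Cideb it was Nop9 (0.99), the overlapping gene. Cidea was most like Slco1b2 (0.85), a weaker match in sparse counts. By Spearman correlation the 3 most like genes were largely others: between none and 2 of 3 were shared for each gene, none for Plin5, and for G0s2 they were Cald1, Wrnip1 and Xpnpep3, none in the PPAR alpha list. Among the members themselves, Plin2, Plin5 and Fitm2 were alike at 0.91 for each pair, while Cidea stood between -0.24 and 0.27 with each of the others.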

How the data were processed

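Liver RNA was extracted with TRIzol and chloroform and poly(A)-selected, per the labels' protocols. The authors deposited read counts per gene, which per the file headers came from featureCounts 2.0.1 over the exons of each gene on build mm39, without regard to strand and with a read counted for every gene it overlapped. Trim Galore 0.6.10, Bowtie 1.3.1 and STAR 2.7.10b are named, without their roles, in the submitters' processing notes. The deposited table also gives each gene's summed exon length, an annotation value and not a measurement. A second deposited table holds 15 columns of TPM whose names do not carry the labels' replicate numbers; it was not used, and TPM was recomputed from the counts and exon lengths.

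Of 26264 genes, 13189 passed edgeR's filter on low counts (edgeR 4.0.16, R 4.3.3). One quasi-likelihood fit of the 15 libraries, scaled by trimmed mean of M-values, gave the 10 pairwise comparisons, with Benjamini-Hochberg adjustment over all genes tested and calls at 0.05. Standard errors are the log2 fold change divided by the square root of F and are approximate. The fit was tested on simulated counts for HFD-337 over HFD-NS livers, with 200 of 12908 genes changed. It recovered 66.0% of 2-fold changes and 29.3% of smaller ones, and 6.06% of its 99 calls were false. In the data 6220 genes were called in that comparison. The simulated share of changed genes was thus far lower, and these rates do not measure recovery in the data. A gene that was not called can still differ. Alternatives used DESeq2 1.42.0, limma 3.58.1, other scaling, no filter, TPM with pseudocounts of 1 and 0.1, only the groups compared, and each library left out. The genes and lists were chosen with earlier results of these data known. Every one of the 10 genes is named; from the other lists, up to 2 called genes per direction and comparison were taken by the size of their fold change, at a mean of at least 1 CPM and without overlap of the groups, beside a few fixed regulators and lipases. 1 gene that this rule picks is not reported here. Counting intervals are exact and cover counting error only.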

Additional observations from a re-analysis of the deposited data

Results flagged for a closer look

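Cideb was called in opposite directions over HFD-NS livers in HFD-337 and HFD-338 livers, and the test of the difference itself, HFD-337 over HFD-338 livers, gave a log2 fold change of 0.95 ± 0.09 (SE, n = 3 each; edgeR adjusted p = 1.06e-07), with 3 of 3 HFD-337 libraries above every HFD-338 library. The overlapping gene Nop9 moved the same way, at 324 ± 11.6 CPM in HFD-337 livers and 149 ± 8.06 CPM in HFD-338 livers (SD, n = 3 each), and the reads of the pair cannot be told apart.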

How the results depend on the processing

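Outside the runs that left out a library, 644 values kept their direction and their side of the threshold, 34 lost a call, 14 gained one and 3 reversed; among runs that left out a library the numbers were 539, 38, 11 and 12. The counts of called members stayed within 8 to 10 in HFD-337, 6 to 9 in HFD-338 and 2 to 4 in HFD-Res over HFD-NS livers and 5 to 6 in HFD-NS over SD-NS livers. In HFD-338 over HFD-Res livers 3 members were called on the TPM scale with either pseudocount and 2 to 4 without 1 library, where 5 were reported. All genes called in HFD-Res over HFD-NS livers numbered 1134 to 1467 without 1 library, the fewest without HFD-Res replicate 34, where 1709 were reported. None of the reversed values was called as reported: Plin3 in HFD-338 over HFD-NS livers was -0.0128 without the filter and -0.059 to 0.074 without 1 library; Plin4 in HFD-338 over HFD-Res livers was 0.12 and 0.16 on the TPM scale and -0.47 to 0.083 without 1 library. Leaving out 1 library also gave -0.22 to 0.0052 for G0s2 and -0.024 to 0.23 for Plin2 in HFD-Res over HFD-NS livers, -0.47 to 0.12 for Plin5 and -2.45 to 0.63 for Cidea (reported at -0.55, from few reads) in HFD-337 over HFD-338 livers, and -0.32 to 0.022 for Plin3 and -0.022 to 0.045 for Cideb in HFD-Res over SD-NS livers. The cause was not tested. On the TPM scale with a pseudocount of 1 the median of all genes moved to 0.12 in HFD-338 over HFD-NS livers, -0.23 in HFD-337 over HFD-338 livers, 0.12 in HFD-338 over HFD-Res livers and 0.18 in HFD-338 over SD-NS livers. That scale called 1984 genes higher and 1098 lower in HFD-NS over SD-NS livers against 1589 and 2122 as reported, 2220 and 3593 in HFD-337 over HFD-NS livers against 3214 and 3006, 2782 and 1359 in HFD-338 over HFD-NS livers against 2490 and 2357, 2187 and 5284 in HFD-337 over HFD-338 livers against 3794 and 3907, 2410 and 3739 in HFD-337 over HFD-Res livers against 3205 and 3078, 3580 and 1778 in HFD-338 over HFD-Res livers against 2926 and 2761, 4265 and 1547 in HFD-338 over SD-NS livers against 3028 and 3396, and 2045 and 1280 in HFD-Res over SD-NS livers against 1517 and 2026. Without the filter on low counts the split for HFD-NS over SD-NS livers was 1722 and 1511. Cidea could not be tested in 5 comparisons fitted on their own groups. A left-out library leaves 2 in its group, and few reads limit Cidea outside HFD-NS livers. No paired analysis was possible because the groups share no replicate numbers in the labels.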
